A study of Mus musculus with 6 samples.

Results

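The genes described are the 10 insulin-like growth factor (IGF) ligands, receptors and binding proteins found by symbol in the deposited count table, which held 20071 gene identifiers. They comprise the ligand genes Igf1 and Igf2, the receptor genes Igf1r and Igf2r, and the binding protein genes Igfbp2 to Igfbp7. Poly(A) RNA was sequenced from mesenchymal stem cells (MSCs), stromal cells of the marrow that can form osteoblasts. The cells came from the femurs of 6-week-old Prrx1-Cre;Pcif1fl/fl mice and Pcif1fl/fl littermates, with 3 libraries per genotype, and had spent 7 days in osteogenic medium. The Pcif1fl/fl libraries are called controls and the Prrx1-Cre;Pcif1fl/fl libraries conditional knockouts (CKO). Both genotypes carried the floxed Pcif1 alleles and received the same medium, in which dexamethasone (100 nM), ascorbic acid (50 µg/mL) and β-glycerophosphate (5 mM) drive osteoblast formation. They differed in Prrx1-Cre, a recombinase driven by a Prrx1 enhancer of the limb mesenchyme, which is meant to act in mesenchymal cells and not in other cells of the culture. PCIF1 methylates an adenosine that directly follows the mRNA cap, and the comparison asks which transcripts differ when Pcif1 is deleted during osteogenic differentiation. The deposited design text speaks of duplicates, whereas the labels give 3 libraries of each genotype.

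IGF1 and IGF2 are secreted peptides that act through the IGF1 receptor, a tyrosine kinase that signals through IRS adaptors and PI3K-AKT. The IGF2 receptor binds IGF2 and delivers it to lysosomes. Most IGF outside cells is held by IGF binding proteins, which prolong its life and limit or present it to the receptor, and proteases that cut the binding proteins set it free. In bone, osteoblasts and marrow stromal cells make both ligands and several of the binding proteins. IGFBP4 is known chiefly as an inhibitor of IGF action, whereas IGFBP5 also binds to the bone matrix.

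Because PCIF1 acts on the first transcribed base when it is an adenosine, the annotated starts of 6 of the genes are shown, the 4 binding protein genes whose level differed between genotypes and, for contrast, Igf1 and Igfbp7. Each line holds the 28 bases before the start, the first transcribed base in capitals, and the next base, on the strand of the gene (RefSeq, GRCm38.p6).
Igfbp5, chr1:72874864-72874893, minus strand: agagcccgcagtctctttggaaacttctAa
Igfbp4, chr11:99041216-99041245, plus strand: tataaagtcccgggagccggtcccgggcAg
Igfbp3, chr11:7213922-7213951, minus strand: tatatcggcctgcgcgcccgggctgcccAg
Igfbp6, chr15:102144158-102144187, plus strand: aggttcctcatcttcctgcacatacactCa
Igf1, chr10:87861083-87861112, plus strand: attctggatagccgagatagatagccatAc
Igfbp7, chr5:77408044-77408073, minus strand: ttaagggttggcctccgggacccggactGc
The annotated first base was an A for Igfbp3, Igfbp4, Igfbp5 and Igf1, a C for Igfbp6 and a G for Igfbp7. None of the annotated starts of Igf2, Igf1r, Igf2r and Igfbp2 in the same RefSeq table was an A, although Igf2 was also lower in the CKO. Of all 32851 annotated starts in that table, 34.4% were an A. The GENCODE transcripts of a gene do not all begin at the same base: 2 of 2 Igfbp5 transcripts began with an A, against 1 of 6 for Igfbp4, 1 of 2 for Igfbp3, 0 of 1 for Igfbp6, 3 of 8 for Igf1 and 1 of 2 for Igfbp7. In the same annotation 2 of 9 Igf2 transcripts, 1 of 6 for Igf1r, 1 of 3 for Igfbp2 and 0 of 3 for Igf2r began with an A. Which starts these cells used, and whether the first base was methylated, cannot be read from counts per gene. The letters TATAAA, searched on the gene strand in the 50 bases before each start, were found for Igfbp4 alone among the 10 genes and before 2.63% of all annotated starts.

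The libraries held 20258209 to 28227696 counts, and control replicate 3 stood apart from the others, with 3.63% of its counts on mitochondrial genes against 1.40% to 1.57% elsewhere. Pcif1 itself was at 41.3 ± 1.79 CPM (counts scaled to a common library size, SD, n = 3) in the controls and 38.9 ± 1.007 CPM in the CKO, with overlapping libraries (adjusted p = 0.645, edgeR), so that whole-gene counts do not show the deletion and the group names stand for libraries as labelled. Part of this count is uncertain, since 16.9% of the exonic bases of Pcif1 lie on those of the antisense gene Zfp335. The study targeted only some exons of Pcif1, and counts per gene cannot be split by exon. Xist was at 232 to 443 CPM in the controls and 0.722 to 1.79 CPM in the CKO, and of 4 Y-linked genes Ddx3y and Eif2s3y were higher in the CKO (adjusted p = 0.00325 and 0.029, edgeR), while Kdm5d and Uty did not pass the test (adjusted p = 0.117 and 0.26). Ddx3y stood at 48.4 to 62.2 CPM in the controls and 99.1 to 104 CPM in the CKO, and Uty at 20.5 to 30.4 and 30.8 to 34.5 CPM. All control libraries thus held both Xist and Y-linked transcripts, and genotype and the sex makeup of the cultures cannot be told apart in any of the results. The 14 macrophage markers summed to 34110 to 36820 CPM in the controls and 34100 to 37290 CPM in the CKO, and 10 mesenchymal markers to 7537 to 10040 and 12960 to 13810 CPM, most of it from Col1a1 (means of 4039 and 6173 CPM) and Col1a2 (4105 and 6377 CPM). The cultures labelled MSCs thus held abundant macrophage transcripts in both genotypes. As in any bulk sample, fewer cells of a type and less RNA per cell cannot be told apart.

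All 10 genes passed the expression filter and were tested. Igf2, Igfbp3, Igfbp4 and Igfbp5 were lower and Igfbp6 was higher in the CKO at an adjusted p under 0.05, which makes 4 of 10 lower against 4.51% of the 13733 genes tested and 1 of 10 higher against 2.88%. Without CKO replicate 1 or 2, 2 of the 10 were lower, while the calls over all genes fell to 324 lower of 13975 tested and 349 lower of 13980. Without control replicate 3, 4 of 10 were lower, and the calls over all genes rose to 1447 lower and 1544 higher of 13905 tested. With a difference of at least 2-fold in addition, 3 of 10 were lower against 2.50% of genes and 1 of 10 was higher against 1.03%. The CKO libraries all lay under the controls for 4 of the 10, against 15.7% of genes, and all above them for 2 of the 10, against 15.0%. The other 5 genes, Igf1, Igf1r, Igf2r, Igfbp2 and Igfbp7, did not pass the test. The median log2 fold change of the 10 was -0.076, against 0.0017 over all genes. In an ordering of the 13733 genes by p, Igfbp5 stood at place 10 and Igfbp4 at place 30. The plot of CPM by library shows the separate and the overlapping genes.

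**Figure D1:**
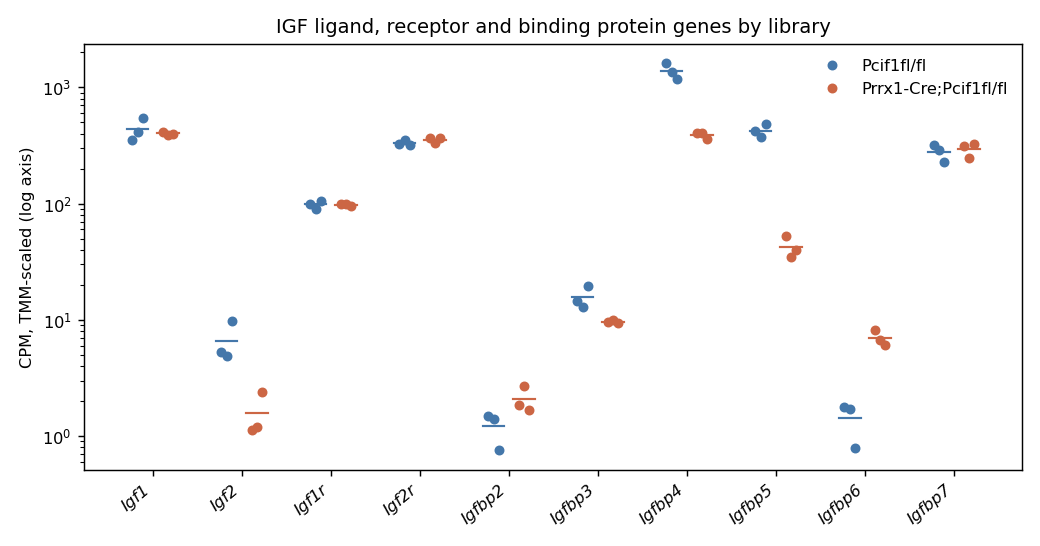
Level of each of the 10 genes in each library, in TMM-scaled CPM on a log axis, with Pcif1fl/fl in blue, Prrx1-Cre;Pcif1fl/fl in orange, 1 point per library in replicate order and a line at the mean. Igfbp5 separates the genotypes most widely, with Pcif1fl/fl at 373 to 479 CPM and Prrx1-Cre;Pcif1fl/fl at 34.6 to 52.8 CPM, while the points of Igf1, Igf1r, Igf2r and Igfbp7 overlap.

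Of the 2 ligand genes, Igf2 was lower and Igf1 did not pass the test. Igf1 (ENSMUSG00000020053, chr10:87858265-87937042, plus strand) encodes the main postnatal ligand. It stood at 351, 416 and 546 CPM in control replicates 1 to 3 and at 414, 390 and 399 CPM in the CKO. The CKO libraries all fell inside the range of the controls. The log2 fold change, here and below CKO over control, was -0.13 (95% interval -0.47 to 0.22, adjusted p = 0.685, quasi-likelihood test of edgeR, Benjamini-Hochberg adjustment over all genes tested, as for every adjusted p given). Without control replicate 3, the highest library, the estimate was 0.068, with an adjusted p of 0.569.

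Igf2 (ENSMUSG00000048583, chr7:142650766-142666816, minus strand), an imprinted gene and the main fetal ligand, had few counts and fell by 2.08 on the log2 scale (SE 0.38, adjusted p = 0.0135), 4.21-fold lower. Its levels were 5.24, 4.89 and 9.75 CPM in the controls and 1.13, 1.195 and 2.41 CPM in the CKO, from 120, 133 and 272 counts against 25, 24 and 50. Each CKO library was below each control library, and replicate 3 was the highest in both genotypes. Without control replicate 3 the log2 fold change was -1.68 (adjusted p = 0.000506). The call was lost without CKO replicate 1 (adjusted p = 0.074) or replicate 2 (adjusted p = 0.0785). Of the exonic bases of Igf2, 62.8% lie on those of the same-strand gene Gm49394 and 1.71% on the antisense Igf2os, and the counts cannot separate reads from such bases.

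The 2 receptor genes, by contrast, showed no difference past the threshold and had narrow intervals. Igf1r (ENSMUSG00000005533, chr7:67952827-68233668, plus strand), which encodes the signalling receptor, stood at 99.8, 90.5 and 106 CPM in the controls and 98.4, 98.4 and 94.5 CPM in the CKO. The groups overlapped, with a log2 fold change of -0.026 (95% interval -0.24 to 0.18, adjusted p = 0.901). Igf2r (ENSMUSG00000023830, chr17:12682406-12769664, minus strand), the receptor that removes IGF2, stood at 323, 354 and 318 CPM in the controls and 363, 334 and 370 CPM in the CKO. One CKO library lay within the control range, and the log2 fold change was 0.10 (95% interval -0.10 to 0.31, adjusted p = 0.571).

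Among the binding protein genes, Igfbp5 showed the widest difference of the 10 genes. Igfbp5 (ENSMUSG00000026185, chr1:72857932-72874884, minus strand) was at 424, 373 and 479 CPM in the controls and 52.8, 34.6 and 39.9 CPM in the CKO. Even the highest CKO library was far below the lowest control. The gene fell by 3.33 on the log2 scale (SE 0.18, adjusted p = 5.23e-05), which is 10.03-fold, and every left-out library gave a value between -3.51 and -3.20.

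Igfbp4 (ENSMUSG00000017493, chr11:99041244-99054392, plus strand) had the highest level per kilobase of exonic length of the 10 genes in the control cultures. It stood at 1611, 1357 and 1187 CPM in the controls and 406, 404 and 363 CPM in the CKO. The groups were well apart and the CKO libraries were close to each other. Igfbp4 fell by 1.83 on the log2 scale (SE 0.13, adjusted p = 0.000154), or 3.54-fold, with values between -1.92 and -1.70 when any library was left out.

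Igfbp3 (ENSMUSG00000020427, chr11:7206086-7213923, minus strand) encodes the main IGF carrier of the circulation and had 194 to 544 counts per library here. It stood at 14.5, 12.97 and 19.5 CPM in the controls and 9.63, 9.91 and 9.33 CPM in the CKO. The 2 groups did not overlap, but the gap between them was small. Igfbp3 fell by 0.70 on the log2 scale (SE 0.17, adjusted p = 0.0438), 1.63-fold lower, and lay just inside the threshold. The call was lost in a fit with limma-voom (adjusted p = 0.0601), with the replicate number as a block (adjusted p = 0.0756) and without control replicate 1 (adjusted p = 0.0715) or any CKO library (adjusted p from 0.14 to 0.173), whereas without control replicate 3 the log2 fold change was -0.51 (adjusted p = 0.0066).

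Markers of reticular stroma, the marrow cells rich in the chemokine CXCL12, moved in the same direction as Igfbp4 and Igfbp5. Of 8 such markers tested, 7 were lower and 0 higher, with Cxcl12 at 3051 CPM in the controls and 562 CPM in the CKO, Lepr at 80.1 and 12.2 CPM and Adipoq at 47.0 and 0.824 CPM. The 8 markers summed to 3913 to 4430 CPM in the controls and 1060 to 1260 CPM in the CKO. Of 8 adipocyte markers, which share Adipoq and Lpl with that list, 5 were lower and 0 higher, and Plin1 and Cfd had no count in any CKO library. Fabp4 and Lpl of the same list had positive log2 fold changes that did not pass the test, 0.46 (adjusted p = 0.0545) and 0.23 (adjusted p = 0.486). The summed level of the adipocyte markers overlapped between genotypes, at 763 to 803 CPM in the controls and 662 to 863 CPM in the CKO. The part of either cell type in the fall of the binding protein genes was not tested. The 10 mesenchymal markers, by contrast, split into 2 lower and 4 higher, with a median log2 fold change of 0.42, among them Eng at -1.11 and Thy1 at 1.52. The 9 osteoblast markers tested split into 3 lower and 1 higher, the latter being Col1a1, which is also 1 of the 4 mesenchymal markers that were higher, the 14 macrophage markers into 0 and 0, and the 8 endothelial markers into 0 and 0. For all these marker lists the shares over all genes tested were 4.51% lower and 2.88% higher. The lists were chosen with earlier results of these data known, so the counts are a description and not a test.

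Igfbp6 (ENSMUSG00000023046, chr15:102144362-102149511, plus strand), whose product binds IGF2 in preference to IGF1, moved the other way. It stood at 1.79, 1.69 and 0.789 CPM in the controls and 8.10, 6.67 and 6.01 CPM in the CKO, from 41, 46 and 22 counts against 180, 134 and 125. All CKO libraries were above all controls. Igfbp6 rose by 2.29 on the log2 scale (SE 0.29, adjusted p = 0.00248), 4.90-fold higher, and the log2 fold change stayed at 2.00 without control replicate 3, its lowest library.

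Igfbp2 (ENSMUSG00000039323, chr1:72824503-72852474, plus strand), a binding protein made by many fetal tissues, had few counts in both genotypes. It stood at 1.49, 1.40 and 0.753 CPM in the controls and 1.85, 2.69 and 1.68 CPM in the CKO. The groups did not overlap, yet the log2 fold change of 0.78 (95% interval 0.022 to 1.53) did not pass the threshold, with a p of 0.045 and an adjusted p of 0.222 from edgeR. The counts behind it were 34, 38 and 21 against 41, 54 and 35, and a difference this size was not established at that depth.

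Igfbp7 (ENSMUSG00000036256, chr5:77349240-77408041, minus strand) encodes a related protein with low affinity for IGFs. It stood at 322, 291 and 226 CPM in the controls and 314, 246 and 327 CPM in the CKO. The genotypes overlapped over most of their range, and the log2 fold change was 0.078 (95% interval -0.28 to 0.43, adjusted p = 0.815). Of its exonic bases, 7.03% lie on those of the antisense gene Polr2b.

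**Figure D2:**
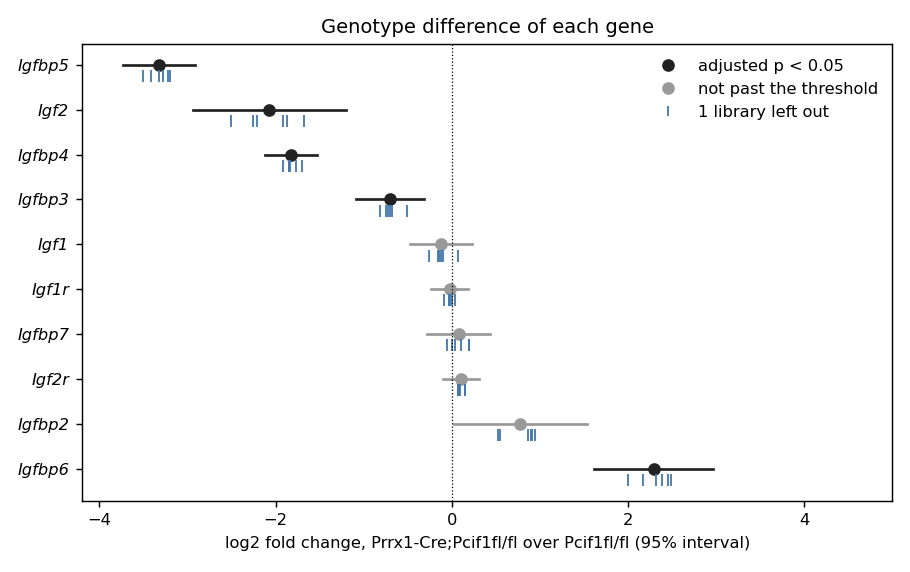
Log2 fold change of each of the 10 genes, Prrx1-Cre;Pcif1fl/fl over Pcif1fl/fl, with its 95% interval from edgeR, in black at an adjusted p under 0.05 and in grey otherwise; blue ticks give the value when 1 library is left out. Igfbp5 at -3.33, Igf2 at -2.08, Igfbp4 at -1.83 and Igfbp6 at 2.29 lie clear of 0 under every left-out library, whereas the ticks of Igf1, Igf1r and Igfbp7 fall on both sides of it.

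Levels of different genes were compared as CPM per kilobase of exonic length. In control cultures Igfbp4 was highest, at 314 ± 48.3 CPM per kb (SD, n = 3), followed by Igfbp7 at 231 ± 40.4, Igfbp5 at 70.9 ± 8.85 and Igf1 at 44.2 ± 10.01 CPM per kb. Igf2r followed at 35.6 ± 2.06 CPM per kb and overlapped Igf1. Igf1r at 5.89 ± 0.474 and Igfbp3 at 5.00 ± 1.09 CPM per kb overlapped each other, as did Igfbp6 at 1.28 ± 0.496 and Igf2 at 1.16 ± 0.474 CPM per kb, above Igfbp2 at 0.656 ± 0.216 CPM per kb. The library ranges of all other neighbours in this order did not overlap. Beyond neighbours, Igfbp6 (0.709 to 1.61 CPM per kb) also overlapped Igfbp2 (0.408 to 0.804 CPM per kb). The transcript of the ligand IGF1 was thus far more abundant than that of IGF2, and those of 3 binding proteins were more abundant than either.

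The order was different in CKO cultures, where Igfbp7 was highest at 244 ± 36.0 CPM per kb. Igfbp4 was next at 88.5 ± 5.51 CPM per kb, ahead of Igf1 at 40.5 ± 1.26 and Igf2r at 38.2 ± 2.07 CPM per kb, whose libraries overlapped. Igfbp5 at 7.06 ± 1.56 CPM per kb overlapped Igfbp6 at 6.23 ± 0.961, which overlapped Igf1r at 5.78 ± 0.133 CPM per kb. Igfbp3 at 3.08 ± 0.0914, Igfbp2 at 1.12 ± 0.292 and Igf2 at 0.275 ± 0.126 CPM per kb closed the order without overlap. Igfbp5 thus went from above Igf1 and Igf2r to below both. With the longest transcript in place of exonic length, 44 of 45 pairs kept their order in the controls and 43 of 45 in the CKO.

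The makeup of the binding protein transcripts differed accordingly. Igfbp4 held 51.5%, 49.9% and 49.5% of the summed level per kb of the 6 binding protein genes in control replicates 1 to 3 and 24.7%, 29.4% and 22.3% in the CKO. Igfbp7 held 37.6%, 39.0% and 34.5% in the controls and 69.8%, 65.3% and 73.3% in the CKO. The 2 genes thus exchanged the leading place in every library, at a level of Igfbp7 whose difference did not pass the test. Igfbp5 went from 11.6% ± 2.70 to 2.01% ± 0.312 and Igfbp6 from 0.202% ± 0.0621 to 1.79% ± 0.276 (SD, n = 3 each). Igfbp2 went from 0.104% ± 0.0252 to 0.328% ± 0.122, and Igfbp3 held 0.824% ± 0.280 in the controls and 0.886% ± 0.115 in the CKO. A two-sided exact permutation test of 3 against 3 libraries gave its smallest possible p of 0.1 for each share but that of Igfbp3 (exact p = 0.6), so that no share could reach a p under 0.05.

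**Figure D3:**
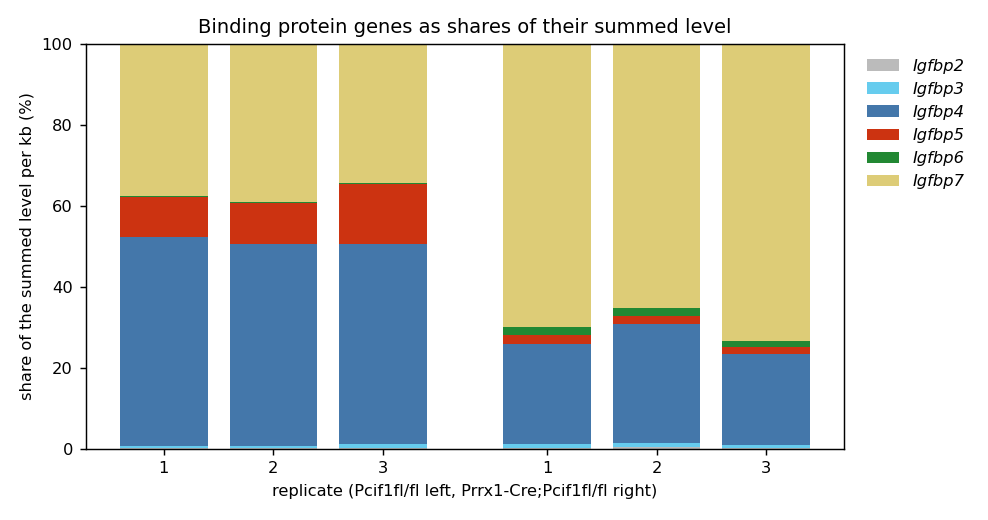
Share of each of the 6 binding protein genes in their summed level per kb (percent, bars from 0 to 100), 1 bar per library, with Pcif1fl/fl replicates on the left and Prrx1-Cre;Pcif1fl/fl replicates on the right. Igfbp4 holds 49.5% to 51.5% of each Pcif1fl/fl bar, and Igfbp7 holds 65.3% to 73.3% of each Prrx1-Cre;Pcif1fl/fl bar.

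The summed level of the 6 genes was 709, 616 and 543 CPM per kb in the controls and 371, 311 and 368 CPM per kb in the CKO, 1.78-fold lower in the means (two-sided exact permutation p = 0.1, the smallest possible). Igf1 amounted to 5.00%, 6.81% and 10.1% of that sum in the controls and 11.3%, 12.7% and 10.9% in the CKO. The groups did not overlap, but control replicate 3 came close to the CKO libraries, and the exact p was again 0.1. These 2 quantities were chosen after the values had been seen, and they describe transcripts, not the proteins in the medium.

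The gene whose log2 CPM followed each of the 10 most closely over the 6 libraries was found among 12636 genes, as a description in which genotype is shared by the points. It was Nfkbie for Igfbp5 (Pearson r = 0.999), Kirrel for Igfbp4 (r = 1.00), Ptprm for Igfbp3 (r = 0.999), Gars for Igfbp6 (r = 0.997) and Kalrn for Igf2 (r = 0.995). For the genes that did not pass the test it was Sec23ip for Igf1 (r = 0.994), Rusc1 for Igf1r (r = 0.987), Cep43 for Igf2r (r = 0.993), Aatk for Igfbp2 (r = 0.997) and Slc7a4 for Igfbp7 (r = 0.992). The log2 fold changes of Nfkbie and Kirrel were -0.58 and -0.54, much smaller than those of Igfbp5 and Igfbp4.

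Of 60 other genes of the IGF pathway, written as a list by role, 3 were not analysed here, Gpc3 and Irs4 did not pass the expression filter and 55 were tested. Of these, 9 were lower and 2 higher in the CKO, against 4.51% and 2.88% of all genes tested. At a difference of at least 2-fold, 4 were lower and 1 higher, against 2.50% and 1.03%. Without CKO replicate 1 or 3 the count of lower genes was 5, where 324 of 13975 and 328 of 13981 genes were lower over all. Without control replicate 3 it was 15, with 5 higher, at the larger number of calls over all genes given above. Their median log2 fold change was -0.076. On the ligand side both genes tested were lower. H19, the imprinted non-coding RNA next to Igf2, stood at 69.7 ± 11.7 CPM in the controls and 27.4 ± 2.18 CPM in the CKO, with a log2 fold change of -1.35 (adjusted p = 0.000952). Igfals, the acid-labile subunit that stabilizes IGF complexes in blood, had 29, 23 and 17 counts against 2, 1 and 5 (adjusted p = 0.0226), a call on very low counts that was lost without replicate 1 or 2 of either genotype. Its log2 fold change of -2.77 ran from -3.57 without CKO replicate 3 to -2.42 without CKO replicate 2.

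Of the 7 genes for binding protein proteases and their inhibitors, 3 were lower and 1 higher, against 4.51% and 2.88% of all genes tested. Pappa, the protease that cleaves IGFBP4, stood at 270 ± 37.1 CPM in the controls and 180 ± 3.54 CPM in the CKO and fell by 0.58 on the log2 scale (adjusted p = 0.016), a call lost without any one of the CKO libraries. Pappa2, which cleaves IGFBP5 and IGFBP3, rose from 14.3 ± 0.916 to 36.2 ± 2.69 CPM, by 1.34 on the log2 scale (adjusted p = 0.00031). Stc1, a stanniocalcin that inhibits these proteases, stood at 7.69, 5.48 and 11.6 CPM in the controls and 0.990, 0.747 and 0.722 CPM in the CKO. The groups were far apart, and Stc1 fell by 3.32 on the log2 scale (adjusted p = 0.000749), with 5.46% of its exonic bases on those of the antisense Gm41192. Htra3, a serine protease of the family that cuts binding proteins, fell from 48.0 ± 3.01 to 25.3 ± 2.82 CPM, by 0.92 on the log2 scale (adjusted p = 0.00223).

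In the growth hormone axis, which drives Igf1 in many tissues, 1 of 6 genes was lower and 1 higher, against 4.51% and 2.88% of all genes tested. Ghr, the growth hormone receptor, stood at 111, 118 and 167 CPM in the controls and 55.9, 58.0 and 55.8 CPM in the CKO, with no overlap, and fell by 1.22 on the log2 scale (adjusted p = 0.00231). Socs2, a feedback inhibitor of that receptor, rose from 7.08 ± 0.253 to 13.2 ± 1.02 CPM, by 0.90 on the log2 scale (adjusted p = 0.00422). Among the other receptors, Insr, the insulin receptor, had a log2 fold change of -0.22 (adjusted p = 0.222) and Tmem219, a receptor for IGFBP3, of 0.14 (adjusted p = 0.612). Neither passed the test.

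Inside the cell, 2 of 14 adaptor genes and 1 of 21 genes of the PI3K-AKT-mTOR chain were lower and 0 were higher, where 4.51% of all genes tested were lower and 2.88% higher, so that the count for the chain was near the background. Irs1, the adaptor that links the IGF1 receptor to PI3K, fell by 0.42 on the log2 scale from 76.4 ± 3.53 to 57.3 ± 1.79 CPM (adjusted p = 0.025), with 30.9% of its exonic bases on those of the antisense gene Gm9747. Grb10, an inhibitory adaptor of the receptor, fell by 0.62 from 251 ± 24.9 to 163 ± 6.46 CPM (adjusted p = 0.00725). Pik3r1, the regulatory subunit of PI3K, fell by 0.63 from 365 ± 50.0 to 236 ± 17.0 CPM (adjusted p = 0.0149). The Irs1 call was lost with the replicate number as a block (adjusted p = 0.0745) and without any library but control replicate 3, the Grb10 call without CKO replicate 3, and the Pik3r1 call without CKO replicate 1 or 3. None of the 3 genes for IGF2 mRNA-binding proteins passed the test, with log2 fold changes of 0.0089 for Igf2bp2 (adjusted p = 0.985) and 0.026 for Igf2bp3 (adjusted p = 0.959). Igf2bp1 had one of -0.96 (95% interval -1.54 to -0.38, adjusted p = 0.0572), just outside the threshold and named after its value was seen, with 1.70 ± 0.112 CPM in the controls, 0.874 ± 0.114 CPM in the CKO and no overlap.

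**Figure D4:**
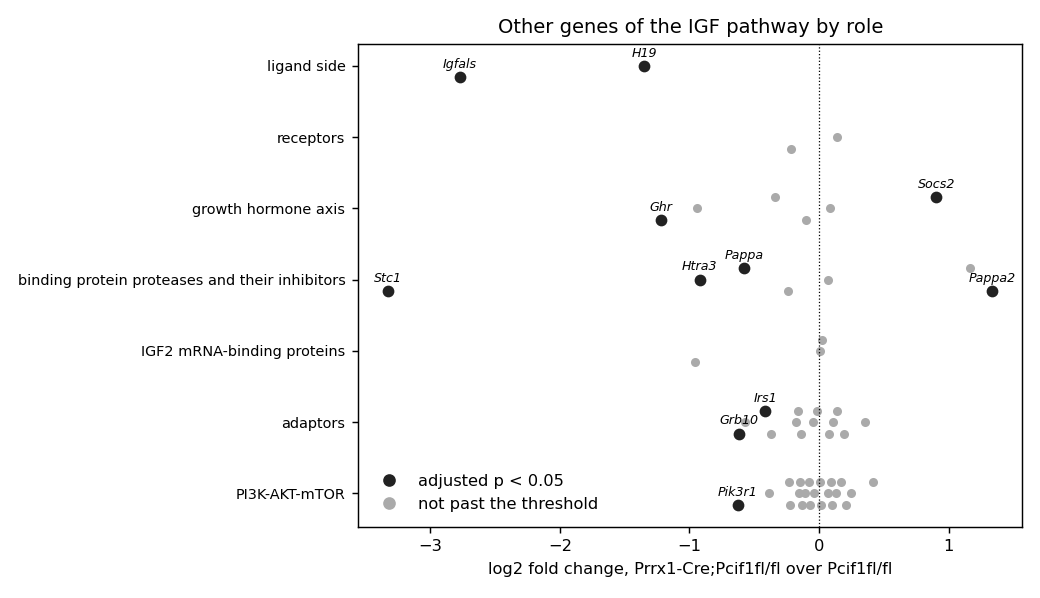
Log2 fold change of the 55 other IGF pathway genes tested, Prrx1-Cre;Pcif1fl/fl over Pcif1fl/fl, in 1 row for each role, with genes at an adjusted p under 0.05 in black and named. Stc1 at -3.32 and Igfals at -2.77 lie lowest and Pappa2 at 1.34 highest, while the 21 genes of the PI3K-AKT-mTOR row gather around 0.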

How the data were processed

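The labels gave 3 samples of each genotype, and the genotypes were compared. The authors deposited raw counts of reads per gene, after HISAT2 mapping to mm10. The counting tool, annotation and use of strand are not given in the sources used here, so reads of antisense or overlapping genes cannot be told apart. Of 20163 entries, 92 repeated an identifier with the same counts and were dropped. No pair of libraries of a genotype agreed within counting noise. The chi-square per gene was 88.5 and 105 for the pairs with control replicate 3, and 2.89 to 10.7 for the others. Testing used edgeR 4.0.16 under R 4.3.3 (filterByExpr, then TMM scaling, glmQLFit and glmQLFTest without covariates) over 13733 genes with Benjamini-Hochberg adjustment. Standard errors are the log2 fold change over the square root of F. CPM are TMM-scaled. Exonic length, positions and overlaps come from GENCODE M21 (GRCm38, the same assembly as mm10). The 10 genes, the pathway and marker lists and the naming rule were chosen with earlier results of these data known. Named beside the 10 genes were every pathway gene at adjusted p under 0.05, the most abundant 2 of each role where none passed, Igf2bp1 (added after its value was seen), and the gene most correlated with each of the 10 (log2(CPM + 0.5), mean of at least 1 CPM). Igfbp1, Igfbpl1 and Insrr, and the markers S100a9, Ltf, Acan and Col9a1, were not analysed here. Markers of neutrophils (0 of 2 tested lower, 1 higher), smooth muscle (1 of 7 lower, 0 higher) and chondrocytes (1 of 4 lower, 0 higher) were also counted. The alternatives were DESeq2 1.42.0, limma 3.58.1 (voom), RLE or total-count scaling, no expression filter or one at a mean of 10 counts, a 2-fold threshold, the replicate number as a block, and leaving out each library. The fit was tested on simulated data with a planted log2 fold change of 2 and a dispersion (spread between libraries beyond counting noise) of 0.02. There, edgeR called 193 of 195 changed genes among 13690, with 8 false calls. Recovery of smaller differences was not tested. The labels do not say whether libraries of a genotype came from separate animals, so p-values measure the spread between these libraries only, and without molecular identifiers intervals cannot separate PCR copies from molecules.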

Additional observations from a re-analysis of the deposited data

How the results depend on the processing

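Of 130 refits of the 10 genes, 13 for each, 119 kept the direction and side of the threshold, 8 lost the call (Igf2 in 2 and Igfbp3 in 6) and 3 reversed. The calls of Igfbp4, Igfbp5 and Igfbp6 held in every refit. Leaving out 1 library gave 2 to 4 of the 10 genes lower, with 2 without CKO replicate 1 or 2, and 1 higher each time. It gave 5 to 15 of the other pathway genes lower, with 5 without CKO replicate 1 or 3 and 15 without control replicate 3, and 2 to 5 higher, with 5 without control replicate 3. Over all genes, 324 of 13975, 349 of 13980 and 328 of 13981 were lower without CKO replicates 1, 2 and 3, in that order. Without control replicate 3, 1447 of 13905 genes were lower and 1544 higher. With the 2-fold threshold 4 of the other pathway genes were lower and 1 higher, against 2.50% and 1.03% of all genes. The genes that reversed were not called: leaving out 1 library gave log2 fold changes of -0.26 to 0.068 for Igf1, -0.085 to 0.033 for Igf1r and -0.050 to 0.20 for Igfbp7, each turned by control replicate 3. The difference in the share of Igfbp3 ran from -0.024 to 0.22 percentage points. Of 143 refits of the 11 other pathway genes called, 127 kept the call and 16 lost it. The cause of these changes was not tested.

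Same-numbered libraries did not deviate together (correlations of 0.064, -0.050 and -0.0016), so the numbers do not pair them. With the replicate number as a block, 3 of the 10 genes were lower and 1 higher, Igfbp3 being lost (adjusted p = 0.0756, edgeR), and 8 other pathway genes were lower, Irs1 being lost (adjusted p = 0.0745), and 2 higher. Over all genes, calls went from 620 lower and 396 higher to 503 and 267 with the block, and to 1447 and 1544 without control replicate 3. Igf2, Igfbp2 and Igfbp6 rest on few counts, and their intervals are the widest of the 10.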

Other observations

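Igfbp2 and Igfbp5 are neighbours on chromosome 1, 5458 bases apart on opposite strands, and stood on opposite sides of 0. Igfbp5 had a log2 fold change of -3.33 (adjusted p = 5.23e-05, quasi-likelihood test of edgeR, Benjamini-Hochberg adjustment), whereas Igfbp2 had one of 0.78 (adjusted p = 0.222). The next tested genes outward were Rpl37a beyond Igfbp2, at -0.025 (adjusted p = 0.984), and Tns1 beyond Igfbp5, which encodes the focal adhesion protein tensin 1 and lies 1035347 bases away, at -0.64 (adjusted p = 0.00314).

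At the imprinted locus of chromosome 7, Igf2 and H19, which are 72623 bases apart and are read from opposite parental chromosomes in most tissues, were both lower, with log2 fold changes of -2.08 and -1.35. Tspan32, the next gene tested beyond Igf2, had a log2 fold change of -0.33 (adjusted p = 0.725). Igf2os, the antisense RNA of Igf2, did not pass the expression filter, with 18, 6 and 20 counts in the controls and 1, 0 and 3 in the CKO. Airn, the antisense RNA that overlaps the imprinted Igf2r, had a log2 fold change of -0.22 (adjusted p = 0.688) and shares no exonic base with it.

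The nearest tested neighbours of Igfbp4, Igfbp3 and Igfbp6 did not pass the test. Top2a, the topoisomerase of dividing cells that lies 17055 bases from Igfbp4, had a log2 fold change of -0.41 (adjusted p = 0.0527). Spryd3, 8128 bases from Igfbp6, had one of 0.42 (adjusted p = 0.131), and Soat2, 1015 bases from Igfbp6, one of -0.063 (adjusted p = 0.953).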
